A study of Mus musculus with 2 samples.

Results

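B cells were picked out of single-cell RNA libraries of injured mouse lung, 1 library from p47phox-KI lung and 1 from WT lung. A cell barcode was kept when it had at least 200 detected genes and at most 10% of its unique molecular identifiers (UMIs, each standing for 1 captured RNA molecule) from mitochondrial genes. It was taken as a B cell when the UMIs of Cd79a, Cd79b and Ms4a1 summed to at least 3. Markers of other cells had to be nearly absent: at most 1 UMI each from the T cell receptor genes Cd3d, Cd3e and Cd3g, the macrophage genes C1qa, C1qb and C1qc, the endothelial genes Cldn5 and Cdh5 and the fibroblast genes Col1a2 and Col3a1, and 0 of the epithelial gene Epcam. This gave 68 cells of 15578 kept barcodes, 22 in p47phox-KI lung and 46 in WT lung. Because the 3 summed genes chose the cells, their presence is not a finding, and with 1 library per genotype no difference has a replicate check and none was tested. All intervals below are 95% intervals for counting error alone.

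Both groups were mice of the C57BL/6 strain with acute lung injury, labelled p47phox-KI in the one and wild type in the other. p47phox is the organizer subunit of the phagocyte NADPH oxidase, encoded by Ncf1. The knocked-in allele, the agent of injury, the time, and the age, sex and number of animals are not given in the sources used here. Lungs were perfused, digested with collagenase and filtered, red cells were lysed, and the suspension was stained for viability and for the leukocyte antigen CD45.2 before sorting. The gate is not stated, so the B cell share below describes the sorted suspension and not the lung.

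B cells carry a surface antibody, made of heavy and light chains, that signals through the Cd79a and Cd79b proteins. A naive B cell makes its heavy chain in the IgM and IgD forms and uses either a kappa or a lambda light chain. Switched cells make IgG, IgA or IgE instead, and plasma cells secrete antibody and express the joining chain Jchain. Follicular B cells recirculate between blood and lymphoid tissue and pass through the lung vessels.

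The genes most enriched in the chosen cells can be seen beside their own upstream DNA. Of the 10 genes with the highest ratio of level in B cells to level in other kept barcodes, 5 had an entry in the RefSeq promoter table for GRCm38.p6 (the others, Ighd, Ms4a1, Igkc, Mzb1 and Iglc1, had none). The upstream strand of 3 of them follows, 5′ to 3′, from 250 bases before the RefSeq start to the earlier of the RefSeq and GENCODE starts. Fcmr is shown because it ranked highest of the 10, Pou2af1 because it encodes a coactivator that works at B cell promoters, and Cd79a as one of the genes that chose the cells. The ranks of Cd79a and Ms4a1 were set by that choice and are not findings, and the rank of Iglc1 is uncertain because its near-identical copies may share reads. Fcmr encodes the Fc receptor for IgM and lies at chr1:130865669-130880791. Cd79a lies at chr7:24897381-24902197. Capitals mark matches to the motifs searched.
Fcmr upstream, chr1:130865527-130865668, plus strand: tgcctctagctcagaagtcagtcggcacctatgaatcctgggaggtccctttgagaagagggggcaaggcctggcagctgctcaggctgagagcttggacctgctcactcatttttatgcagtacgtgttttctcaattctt
Cd79a upstream, chr7:24897247-24897380, plus strand: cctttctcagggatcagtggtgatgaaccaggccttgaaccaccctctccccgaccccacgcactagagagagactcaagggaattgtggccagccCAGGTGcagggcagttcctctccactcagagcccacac
Pou2af1 upstream, chr9:51213440-51213689, plus strand: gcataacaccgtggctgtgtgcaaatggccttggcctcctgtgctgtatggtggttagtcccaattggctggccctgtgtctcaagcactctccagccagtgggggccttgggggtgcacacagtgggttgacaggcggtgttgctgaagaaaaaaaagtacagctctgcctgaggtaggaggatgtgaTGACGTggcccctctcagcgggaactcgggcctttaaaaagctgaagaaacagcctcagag

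The 250 bases before the RefSeq start were searched on both strands for 6 motifs: the octamer ATTTGCAT, the Ets motif AGGAAGT, the E-box CAGGTG, the EBF palindrome, the TATA box TATAAA and the cyclic AMP response half-site TGACGT. Cd79a held the E-box, 154 to 149 bases before the start, a motif found in 17.2% of 32851 promoters of that length. It also held the Ets motif 55 to 49 bases before the start, beyond the printed stretch, a motif found in 7.69% of promoters. Pou2af1 held the half-site TGACGT 61 to 56 bases before its start, found in 6.47% of promoters. Fcmr held none of the 6. The octamer, found in 1.60% of promoters, and the EBF palindrome, found in 0.779%, were in none of these 3 windows.

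The 22 p47phox-KI B cells were 0.307% (0.193 to 0.465) of 7161 kept barcodes and the 46 WT B cells were 0.547% (0.400 to 0.728) of 8417. The log2 ratio of the shares was -0.83 (-1.63 to -0.068). T cells chosen by the mirrored rule numbered 23 in p47phox-KI lung and 23 in WT lung, a log2 share ratio of 0.23. B cells were thus 48.9% (33.7 to 64.2) of the 2 lymphocyte classes in p47phox-KI lung and 66.7% (54.3 to 77.6) in WT lung, and these intervals overlap. At the edge of the rule, 1 p47phox-KI cell and 7 WT cells had a sum of exactly 3, while 2 p47phox-KI and 5 WT barcodes with a sum of 2 fell just outside. The sum ran from 3 to 32 in p47phox-KI B cells with a median of 11.5, against 3 to 17 in WT B cells with a median of 6. The limits on other cells' genes removed 20 of 42 p47phox-KI barcodes and 16 of 62 WT barcodes with a sum of 3 or more.

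The p47phox-KI B cells held 64006 UMIs in all, with a median of 2519.5 and a range of 1874 to 7676 per cell. The WT B cells held 125375, with a median of 2053 and a range of 685 to 15118. Median mitochondrial shares were 6.66% in p47phox-KI B cells and 6.95% in WT B cells, against 4.64% and 4.66% in the other kept barcodes of those libraries. The libraries held 43445797 UMIs (p47phox-KI) and 43376713 (WT) over all barcodes. They shared 30 barcode sequences, none of which belonged to a B cell.

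The label B cell held for most of the 68 cells. Of the 14 B cell markers, at least 3 of those outside the rule had a UMI in 22 of 22 p47phox-KI cells and in 43 of 46 WT cells. The 12 T cell markers summed to 1 UMI in p47phox-KI B cells and 1 in WT B cells, and the 8 natural killer cell markers were at 0 in both. Neutrophil markers gave 0 and 6 UMIs, and dendritic cell markers 1 and 2. Against the label stood 4 WT cells in which 1% or more of the UMIs came from markers of other cell types, called mixed cells below. No p47phox-KI cell reached that limit, and their highest value was 0.348%.

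The deepest WT cell, with 15118 UMIs, had 2913 of the surfactant gene Sftpc, 551 of Lyz2 and 464 of Sftpa1. Its only B cell marker was Cd79b with 3 UMIs, so the data went against its label. The other 3 mixed cells, with 4184, 3937 and 2723 UMIs, carried 27, 29 and 21 UMIs of Gsn, an actin-severing protein gene used as a fibroblast marker, beside 23, 11 and 19 UMIs of B cell markers. The 4 mixed cells supplied 20.7% of all UMIs in the WT B cells. Results are therefore also given without them, from 22 p47phox-KI cells and 42 WT cells. Their share of kept barcodes was then 0.307% in p47phox-KI and 0.499% in WT, a log2 ratio of -0.70 (-1.51 to 0.077).

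**Figure D1:**
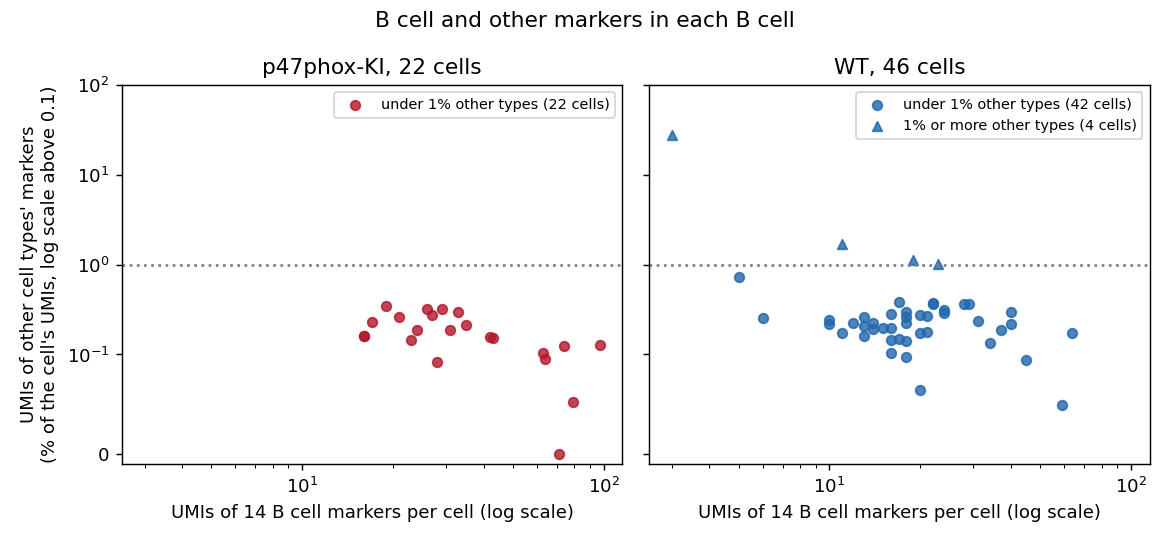
B cell markers against markers of other cell types in each chosen cell, p47phox-KI left and WT right. The x axis gives UMIs of 14 B cell markers per cell on a log scale and the y axis the percent of the cell's UMIs from other types' markers; triangles are the 4 WT cells at or above the dotted 1% line, the highest of which had 27.99% and 3 B cell marker UMIs.

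Sex-linked transcripts set the B cells of the libraries apart. A UMI of a Y-linked gene was found in 9 of 22 p47phox-KI B cells and in 0 of 46 WT B cells, which allows a share of up to 6.52% (3 counts of the total). Xist, the RNA that silences an X chromosome in female cells, was found in 3 of 22 p47phox-KI B cells and in 34 of 46 WT B cells. T cells did likewise, with Y-linked UMIs in 15 of 23 in p47phox-KI and 0 of 23 in WT, and Xist in 1 of 23 and 16 of 23. In the other kept barcodes Xist was found in 87.8% (p47phox-KI) and 85.3% (WT), and Y-linked UMIs in 1.20% and 0.0358%. The lymphocytes of the p47phox-KI library thus differed in these transcripts both from WT lymphocytes and from most other cells of their own library. Genotype and sex-linked expression cannot be told apart in any comparison of these B cells.

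No switched B cell was detected. Ighm, the IgM heavy chain constant region, had a UMI in 20 of 22 p47phox-KI cells and 41 of 46 WT cells. Ighd, the IgD form, had one in 18 of 22 and 25 of 46, and both forms stood in 17 of 22 p47phox-KI cells (77.3%, 54.6 to 92.2) and 24 of 46 WT cells (52.2%, 36.9 to 67.1). With each cell thinned to 1000 UMIs, which left out 1 WT cell, Ighm was found in 14 of 22 and 28 of 45, and Ighd in 9 of 22 and 12 of 45. Both forms then stood in 27.3% of p47phox-KI and 26.7% of WT cells, so the shares lay close together at equal depth. No UMI of any IgG, IgA or IgE constant region and none of Jchain was found in either group, which allows a share of cells with such a UMI of up to 13.6% in p47phox-KI and 6.52% in WT by the same limit. In endothelial cells, which should lack these genes, Ighm was found in 0.60% (p47phox-KI, median 4268 UMIs) and 0.38% (WT, median 3803 UMIs), so free RNA gave far lower shares than those in the B cells.

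Light chains were mostly kappa. A cell was called kappa when Igkc, the kappa constant region, had at least 3 UMIs and over 4 times the summed lambda constant regions Iglc1, Iglc2 and Iglc3, and lambda in the opposite case. The p47phox-KI cells comprised 16 kappa, 1 lambda and 5 undecided cells, and the WT cells 25 kappa, 2 lambda and 19 undecided. Kappa cells were 72.7% (49.8 to 89.3) of p47phox-KI and 54.3% (39.0 to 69.1) of WT B cells, intervals that overlap. As a share of all light chain UMIs, Igkc made up 84.4% in p47phox-KI (567 of Igkc, 105 of lambda) and 82.8% in WT (514 and 107). The near-identical lambda constant regions may share reads, so the light chain calls use their sum.

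The lambda cells were clear-cut. The p47phox-KI lambda cell had 6 lambda and 0 Igkc UMIs, and the WT lambda cells had 24 and 6 lambda and 0 Igkc UMIs; the WT cell with 6 was one of the mixed cells. Among the undecided cells, 1 p47phox-KI cell had 62 Igkc and 26 lambda UMIs, while WT undecided cells reached at most 26 Igkc and 8 lambda UMIs. Kappa cells also held some lambda UMIs, 54 against 467 of Igkc in p47phox-KI and 18 against 389 in WT. Variable segments were almost unread by these 3′ tags: 0 and 2 UMIs of 185 listed Ighv genes, 3 and 4 of 160 Igkv genes and 2 and 0 of 3 Iglv genes in p47phox-KI and WT B cells, so clonal relations were not analysed here.

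**Figure D2:**
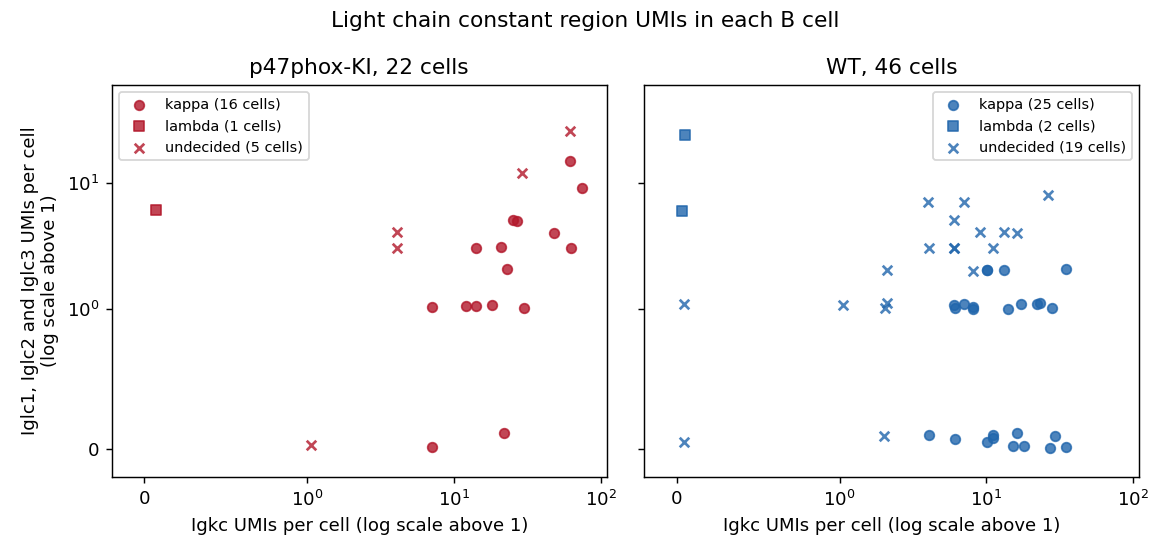
Igkc UMIs (x) and summed Iglc1, Iglc2 and Iglc3 UMIs (y) in each B cell, both on log scales above 1 with a small shift so that equal points show; p47phox-KI left, WT right. The 16 and 25 kappa cells lie low and to the right, and the 1 and 2 lambda cells lie on the left edge at 0 Igkc.

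Immunoglobulin transcripts took a larger part of the RNA in p47phox-KI B cells. The measured constant regions summed to 14139 CPM (UMIs per 1000000 UMIs of the summed cells) in p47phox-KI and 6668 CPM in WT, a log2 ratio of 1.08 (0.95 to 1.22). Without the mixed cells it was 0.79. Igkc stood at 8859 CPM (8144 to 9619) in p47phox-KI and 4100 CPM (3753 to 4470) in WT. Ighm stood at 2937 CPM and 1252 CPM, a log2 ratio of 1.23 (0.92 to 1.54) and 0.97 without the mixed cells. Of the 188 Ighm UMIs in p47phox-KI, 41 came from 1 cell and 32 from another. The Ighm ratio fell short of 2-fold under 5 of 14 other settings and the Igkc ratio under 6. Without the deepest 10% of each group these ratios were 0.88 and 0.74. Cells of the groups overlapped widely: Igkc ran from 0 to 74 UMIs per cell with a median of 21.5 in p47phox-KI, against 0 to 35 with a median of 8.5 in WT. Per 1000 UMIs of the same cell the medians were 7.91 and 4.04, so the difference in medians remained once each cell's depth was taken into account.

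**Figure D3:**
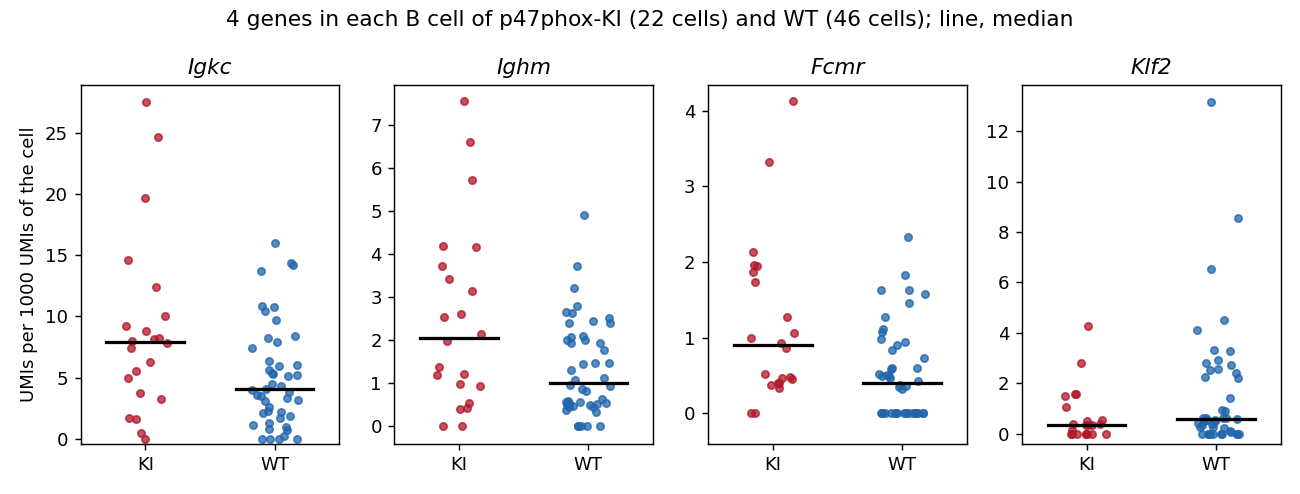
Igkc, Ighm, Fcmr and Klf2 in each B cell as UMIs per 1000 UMIs of the cell; dots are cells, lines are medians, p47phox-KI (22 cells) left of WT (46 cells) in each panel. The clouds overlap in all panels; the Ighm medians are 2.06 and 1.02, the Fcmr medians 0.898 and 0.408 and the Klf2 medians 0.339 and 0.565.

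Of 1170 genes with at least 20 UMIs over both groups, 54 (4.62%) were 2-fold or more higher in p47phox-KI B cells and 116 (9.91%) were 2-fold or more lower, 14.5% in either direction. Without the mixed cells 984 genes were read, 32 (3.25%) higher and 70 (7.11%) lower, 10.4% in either direction. These shares over all genes are the background for the counts of list genes below. The median log2 ratio over all genes was 0.067, and 0.0070 without the mixed cells. Taking immunoglobulin, ribosomal and mitochondrial UMIs out of the totals moved every ratio up by 0.16, which gave 99 genes higher and 98 lower.

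Surface molecules of follicular B cells were higher in p47phox-KI B cells. The list of 14 holds Ms4a1, one of the genes that chose the cells, and the values here leave it out. The other 13 genes summed to 6734 CPM in p47phox-KI and 3924 CPM in WT, a log2 ratio of 0.78 (0.59 to 0.97) and 0.54 (0.35 to 0.73) without the mixed cells. Of the 12 that could be read, 5 were 2-fold or more higher, against 4.62% of all genes read. None was 2-fold or more lower, and the list median was 0.84 against 0.067 for all genes. Without the mixed cells 5 were higher and 2 lower, Cd24a at -1.20 and Cd2 at -1.13. Over all genes read these shares were then 3.25% and 7.11%. In T cells, of which 22 in each library had under 1% of other types' markers, these genes gave -0.080 (-0.45 to 0.29).

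Fcmr had 72 UMIs in 20 of 22 p47phox-KI cells and 54 UMIs in 27 of 46 WT cells, or 1125 CPM (880 to 1417) and 431 CPM (324 to 562). Its log2 ratio was 1.38 (0.86 to 1.92), and 1.16 without the mixed cells. Fcer2a, the low-affinity IgE receptor CD23 of follicular B cells, had 19 UMIs in 11 cells and 12 UMIs in 10 cells, a log2 ratio of 1.61 (0.52 to 2.81). Ms4a4c, a membrane protein gene of the family of Ms4a1, stood at 1.68, Cd38, an ectoenzyme, at 1.62, and the small glycoprotein gene Cd52 at 1.30. For Ms4a4c, 8 of its 15 p47phox-KI UMIs came from 1 cell. Fcer2a and Cd38 stayed 2-fold or more higher under all 14 other settings. Fcmr fell short of 2-fold under 1 of them, Ms4a4c under 3 and Cd52 under 4. Without the deepest 10% of each group Fcmr stood at 0.97, Cd52 at 0.77 and Ms4a4c at 0.47. Cd37 and Ighd differed less, with log2 ratios of 0.44 (-0.065 to 0.92) and 0.61 (0.0089 to 1.19).

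Receptor signalling genes outside the rule summed to a slightly lower level in p47phox-KI B cells, within counting error. The list of the B cell receptor complex and its signalling holds 23 genes, of which Cd79a and Cd79b chose the cells. The other 21 summed to 2344 CPM in p47phox-KI and 2640 CPM in WT, a log2 ratio of -0.17 (-0.46 to 0.11) that was -0.35 (-0.65 to -0.067) without the mixed cells. With Cd79a and Cd79b counted in, the ratio turned to 0.35 (0.17 to 0.54). Of the 10 measured outside the rule, none was 2-fold or more higher and 1 was lower, or 2 without the mixed cells. Over all genes read the lower share was 9.91%, and 7.11% without the mixed cells. The kinase gene Syk stood at 328 CPM and 295 CPM, a log2 ratio of 0.17 (-0.69 to 0.96). Blnk, the adaptor downstream of Syk, was the one lower gene at -1.002 (-2.66 to 0.23), with 6 and 25 UMIs, and fell short of 2-fold under 7 of 14 other settings.

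Of all genes read, 9.91% were 2-fold or more lower. Among B lineage transcription factors, 16 were measured, none was 2-fold or more higher and 2 were lower. Their sum was 6453 CPM in p47phox-KI and 6405 CPM in WT, a log2 ratio of 0.012 (-0.16 to 0.18), and -0.19 (-0.37 to -0.014) without the mixed cells, when 1 of 15 was lower. Ebf1, which commits cells to the B lineage, stood at 1328 CPM and 989 CPM, and Pax5, which keeps them in it, at 141 CPM and 152 CPM. The lower pair were Klf2, a factor that controls lymphocyte homing, and Id3, an inhibitor of E proteins. Klf2 stood at 641 CPM (460 to 869) in p47phox-KI and 1316 CPM (1123 to 1533) in WT, a log2 ratio of -1.03 (-1.57 to -0.54) and -1.28 without the mixed cells. It fell short of 2-fold under 6 of 14 other settings, at -0.71 with a sum of 2. In T cells the Klf2 ratio was 0.12. WT Klf2 was uneven, with 27 of its 165 UMIs in 1 cell and a median of 1 UMI per cell in both groups. Id3 had 3 and 24 UMIs, and 3 and 16 without the mixed cells.

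**Figure D4:**
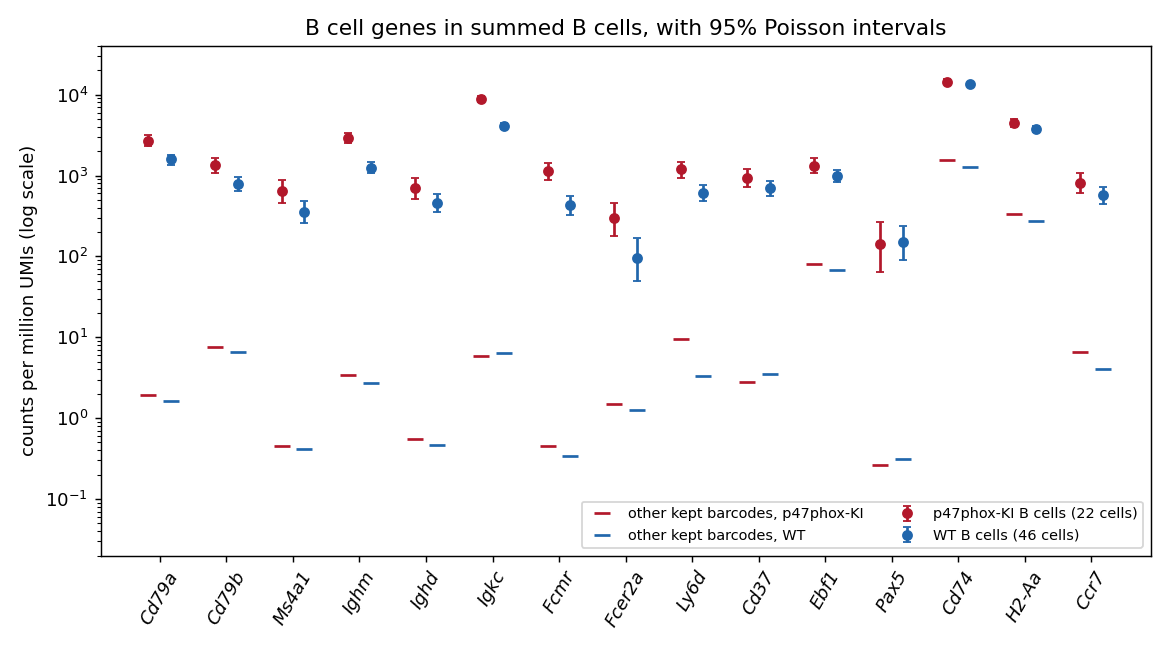
Levels of 15 B cell genes in summed B cells, in CPM on a log scale; dots are p47phox-KI (left of each pair) and WT B cells with 95% Poisson intervals, dashes the other kept barcodes of each library. Fcmr lies at 1125 and 431 CPM, while Pax5 at 141 and 152 CPM and Cd74 at 14530 and 13344 CPM lie close together.

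Antigen presentation genes were among the most abundant B cell transcripts listed. Cd74, the invariant chain of class II molecules, had 930 UMIs in 22 of 22 p47phox-KI cells and 1673 UMIs in 46 of 46 WT cells, or 14530 CPM and 13344 CPM. H2-Aa stood at 4453 CPM and 3749 CPM. The class II list summed to a log2 ratio of 0.21 (0.13 to 0.30), and 0.037 without the mixed cells, and none of its 11 measured genes was 2-fold apart in either direction. The class I list stood at 0.26 (0.085 to 0.44), with 1 of 8 measured genes 2-fold or more higher. Over all genes read 4.62% were 2-fold or more higher, and 14.5% were 2-fold apart in either direction. Cytosolic ribosomal protein genes, 80 of them measured, had none 2-fold apart and a summed log2 ratio of 0.34, or 0.13 without the mixed cells.

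Genes of homing, survival and activation moved in no common direction. Homing and adhesion genes summed to a log2 ratio of 0.015 (-0.32 to 0.33). Ccr7, the chemokine receptor for lymph node entry, had 52 and 71 UMIs, a ratio of 0.52 (-0.024 to 1.06). Tnfrsf13c, the receptor for the survival factor BAFF, had 16 and 15 UMIs, a ratio of 1.06 (-0.048 to 2.18) that was 0.73 without the mixed cells. The Tnfrsf13c ratio fell short of 2-fold under 11 of 14 other settings. Costimulation and activation genes summed to -0.13 (-0.40 to 0.13), with the activation gene Cd83 at 672 CPM and 885 CPM. That sum hung on few cells, since 1 p47phox-KI cell held 60 of the 173 UMIs of its group. It was -0.77 with a rule sum of 5 and 0.27 without the deepest 10% of each group. Inhibitory receptors and phosphatases summed to 0.44 (0.052 to 0.82) and 0.23 without the mixed cells. Cd72 was the 1 gene 2-fold or more higher of 5 measured, against 4.62% of all genes read.

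The oxidase that p47phox organizes was thinly read in B cells. Ncf1, at chr5:134220053-134229625, had 5 UMIs in 3 of 22 p47phox-KI cells and 8 UMIs in 8 of 46 WT cells, a log2 ratio of 0.34 (-1.67 to 2.09). In the other kept barcodes it stood at 4.86 CPM and 5.17 CPM, against 78.1 CPM and 63.8 CPM in the B cells. Because the knocked-in allele is not given in the sources used here, these counts do not check the genotype labels. The 7 oxidase genes summed to 1640 CPM in p47phox-KI and 933 CPM in WT, a log2 ratio of 0.81 (0.42 to 1.21), and 0.59 (0.19 to 1.00) without the mixed cells. Of 4 measured, 2 were 2-fold or more higher: Rac2, a small GTPase of blood cells, at 1.28 (0.59 to 1.99), and Cyba, the membrane subunit p22phox, at 1.06 (0.29 to 1.85). Among the 64 cells left without the mixed ones 1 of 3 measured was, Rac2 at 1.03, with Cyba at 0.88. Over all genes read the higher share was 4.62%, and 3.25% without the mixed cells. Cyba fell short of 2-fold under 8 of 14 other settings, and Rac2 under 1, at 0.86 without the deepest 10% of each group. Cybb, the catalytic subunit gp91phox, stood at 172 CPM and 168 CPM, a ratio of 0.067. In T cells the list gave -0.0019 (-0.41 to 0.41).

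Type I interferon response genes were higher in sum, and 1 cell carried much of it. The 41 listed genes summed to 4531 CPM in p47phox-KI B cells and 2584 CPM in WT, a log2 ratio of 0.81 (0.58 to 1.04), and in T cells to 0.60 (0.30 to 0.92). The deepest p47phox-KI cell alone held 106 of 290 UMIs, among them all 10 UMIs of Ifit3, an antiviral gene with 0 UMIs in WT. The per-cell medians were 7 UMIs in p47phox-KI (range 2 to 106) and 6 UMIs in WT (range 1 to 19). Leaving out that cell and 1 cycling WT cell gave a ratio of 0.32, and leaving out the deepest 10% of each group 0.077. Of the 5 measured genes, Ifi27l2a, at 1.89 (0.94 to 2.96), and Ifi203, at 1.57 (0.51 to 2.72), were 2-fold or more higher. Without the deepest 10% of each group neither was, at 0.81 and 0.92. Over all genes read in the cells as first chosen, 4.62% were 2-fold or more higher. Ifi27l2a had 27 UMIs in 9 p47phox-KI cells and 14 UMIs in 8 WT cells.

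Stress and NF-kB genes were lower in p47phox-KI B cells by small amounts, and T cells showed ratios of like size. Immediate-early and heat-shock genes summed to 26357 CPM and 31410 CPM, a log2 ratio of -0.25 (-0.34 to -0.17), against -0.29 in T cells. When a sum of 2 was enough to choose a cell, the B cell ratio was 0.027, so its direction turned. That setting added 2 p47phox-KI barcodes, which raised the UMIs of the group from 64006 to 83051. The ratio was -0.083 without the 3 WT cells marked for high doublet scores and -0.11 without the deepest 10% of each group. It was -0.43 with a sum of 5 and -0.28 without the mixed cells. In the cells as first chosen, 4 of 25 measured stress genes were 2-fold or more lower and none higher, against 9.91% lower over all genes read. Without the mixed cells 1 was lower and 1 higher. The heat-shock gene Hspa1a stood at 3312 CPM and 4722 CPM, with 13 of 22 and 24 of 46 cells holding a UMI. The Hspa1a log2 ratio was -0.51, and 0.084 without the 3 WT cells marked for high doublet scores. NF-kB genes summed to 2390 CPM and 3350 CPM, a ratio of -0.48 (-0.76 to -0.22), against -0.63 in T cells, and it was -0.086 without the deepest 10% of each group. Icam1, an adhesion molecule induced by NF-kB, had 1 and 40 UMIs, a ratio of -3.78, and -2.91 without the mixed cells. Birc3, an inhibitor of apoptosis induced by NF-kB, had 6 and 37 UMIs, a ratio of -1.56 (-3.19 to -0.40).

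**Figure D5:**
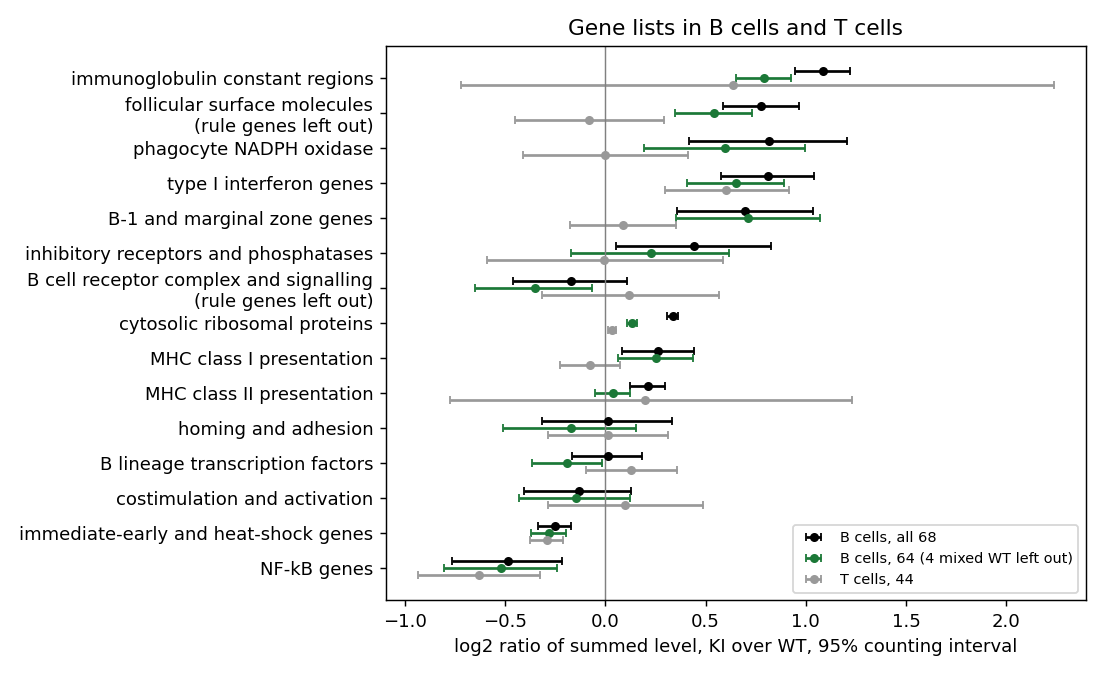
Log2 ratio of the summed level, p47phox-KI over WT, for 15 gene lists with 95% counting intervals (x axis), the genes that chose the cells left out; black is all 68 B cells, green the 64 left without the mixed WT cells and grey 44 T cells. The immunoglobulin list lies farthest right at 1.08 for all B cells and the NF-kB list farthest left at -0.48.

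By the naming rule, the 12 genes with the highest ratios ran from Ephx1 at 2.13 to Pxk at 1.53. Ephx1 encodes the microsomal epoxide hydrolase and had 14 and 6 UMIs. Besides those above, the set held Tbca, Csk, Slc3a2, Mif and Samhd1. Csk, a kinase that restrains Src family kinases, had 20 UMIs in 14 of 22 p47phox-KI cells and 12 UMIs in 9 of 46 WT cells, a ratio of 1.68 (0.60 to 2.87). Samhd1, a nucleotide hydrolase that limits viral replication, had 25 UMIs in 12 cells and 16 UMIs in 14 cells, a ratio of 1.60 (0.65 to 2.62). Of these 12 genes, 9 were also among the 12 highest without the mixed cells. Both rankings used the same 22 p47phox-KI cells and 42 WT cells in common, so this overlap is not a separate check.

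Of the lowest 12 genes, some moved close to 0 once the mixed WT cells were left out and others did not. The set held Mt1, Sftpc, Sftpa1, Mbd1, Mt2, Icam1, Hipk1, Gsn, Neat1, Lamp2, Dusp1 and Kcnq1ot1. Sftpc had 40 UMIs in p47phox-KI and 2980 in WT, of which 63 were left without the mixed cells, and its ratio was then -0.014. Sftpa1 moved to -0.19 and Gsn to -0.79. With those cells left out Mt1, Hipk1, Kcnq1ot1 and Neat1 were still among the 12 lowest, while Mbd1, Icam1, Lamp2 and Mt2 had under 20 UMIs left and were not ranked. Mt1, a metallothionein, had 0 UMIs in p47phox-KI and 136 in WT, at least 23.1-fold lower with 3 counts over the group as the floor for p47phox-KI. With the 27 WT UMIs left without the mixed cells it was at least 5.79-fold lower. Of those 27 UMIs, 15 came from 1 WT cell, which had 3101 UMIs in all. These bounds hold for the cells as chosen here: with a sum of 2 the Mt1 log2 ratio was -1.70, and with no mitochondrial limit -3.96. The ratios of 4 others stayed close: Neat1, a nuclear long noncoding RNA, at -2.83 and -2.31 without the mixed cells, the lysosomal membrane gene Lamp2 at -2.73 and -2.64, the kinase gene Hipk1 at -2.94 and -3.07, and the imprinted antisense RNA Kcnq1ot1 at -2.45 and -2.58. Counts were small: 1 and 19 UMIs of Lamp2, 1 and 22 of Hipk1 and 3 and 37 of Kcnq1ot1. The intervals were wide, -8.65 to -0.62 for Lamp2 and -8.86 to -0.86 for Hipk1. Neat1 was found in 5 of 22 p47phox-KI and 28 of 46 WT cells, and in 90.8% and 93.5% of endothelial cells. Its ratio turned to 0.42 when a sum of 2 was enough to choose a cell, the setting with 2 added p47phox-KI barcodes.

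Single cells stood out within each group. The WT cell with 8641 UMIs was cycling, with 57 UMIs of the cell cycle list (14 of Mki67 and 17 of Stmn1). The same cell held surrogate light chain genes of precursor B cells, 14 UMIs of Vpreb1 and 5 of Igll1, beside 18 of Ighm and 16 of Igkc, and it held all WT Vpreb1 UMIs. No p47phox-KI cell had more than 1 UMI of the cell cycle list. The p47phox-KI cell with 6200 UMIs had the most Ighm of all 68 cells, 41 UMIs, with 0 of Ighd, and 15 UMIs of Plac8 and 10 of S100a6, genes on the B-1 and marginal zone list. It also held 10 of the 13 Xist UMIs of p47phox-KI B cells. The WT cell with 5001 UMIs had a like set, with 10 UMIs of Ighm, 0 of Ighd, 8 of Plac8 and 4 of S100a6. That list summed to a ratio of 0.70 (0.36 to 1.04), with 39 of its 135 p47phox-KI UMIs in 1 cell. The ratio was 0.31 without the deepest 10% of each group and 0.34 without the cells that held haemoglobin UMIs. In S100a6 10 of 18 p47phox-KI UMIs came from the cell with 6200 UMIs.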

How the data were processed

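Single-cell 3′ RNA libraries were made with a droplet kit (V3 chemistry), per the labels' protocols. Tools listed in the submitters' processing notes were Seurat 2.3.4 run in R 3.5.3, Cell Ranger 2.0 and the mm10 build, while the file headers carry software version 3.0.2; the deposited values are raw UMI counts per gene and barcode, and their upstream barcode filter is not given in the sources used here. Barcodes with at least 200 genes and at most 10% mitochondrial UMIs were kept (7161 of 9120 p47phox-KI, 8417 of 10473 WT). UMIs were summed over the B cells of a library. Levels are CPM with exact Poisson intervals, ratios are log2 of p47phox-KI over WT with 0.5 added to each sum and exact conditional binomial intervals, and shares have Clopper-Pearson intervals, all at 95%; a share of 0 is given with 3 counts of the total as its limit. A gene was measured with at least 20 UMIs over both groups. Droplet UMIs from cells are not replicates, so there is no test, and p-values are not given. B cells and the 26 gene lists and 14 marker lists were chosen with earlier results of these data known. Named genes had a UMI in at least 20% of cells of either group and at least 1 part in 4 of the level in other barcodes; the 12 highest and 12 lowest ratios were taken, leaving out the rule's genes and sex-linked, mitochondrial, ribosomal, haemoglobin and antigen receptor segment genes and unnamed gene models. Gene positions are from GENCODE M21. Scrublet's automatic threshold marked 0 barcodes and so did not work; the highest scores at 0.8% per 1000 barcodes marked 0 p47phox-KI and 3 WT B cells. The ratio and interval code was tested on simulated data. Python 3.11.15, numpy 2.4.6, scipy 1.17.1, pandas 2.3.3, scanpy 1.11.5 and matplotlib 3.10.9 were used.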

Additional observations from a re-analysis of the deposited data

How the results depend on the processing

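No paired analysis was possible because each genotype had 1 library. The B cell share was recomputed under 8 other settings and kept its direction in them, 22 list ratios and 67 gene ratios under 14, the counts of genes under 17, and the kappa share and the joint share of Ighm and Ighd under 9. Differences counted per cell, single cells and sex-linked transcripts were not recomputed. A 5% mitochondrial limit left 2 p47phox-KI and 7 WT cells and was not run. The 2 settings that leave out mixed cells, or the cycling and the interferon-high cell, and the lists without the rule's genes were chosen after seeing the data. Log2 ratios of summed lists moved as follows. With a sum of 2 the follicular list, Ms4a1 included here, gave 0.60, the immunoglobulin list 0.85 and the stress list 0.027, and Sftpc (0.39), Dusp1 (0.40), Mbd1 (0.66) and Neat1 (0.42) turned positive. At that sum 2 added p47phox-KI barcodes raised their group from 64006 to 83051 UMIs, and 5 added WT barcodes from 125375 to 147536. Of the added barcodes, 1 in p47phox-KI and 4 in WT had at least 2 UMIs of other B cell genes. With a sum of 5 the follicular list gave 0.54, the immunoglobulin list 0.86 and Sftpc 0.071, with 30 genes 2-fold higher. With 0 UMIs of other types allowed, 63 genes were 2-fold lower and Sftpc was 0.18. Without the deepest 10% of cells, 39 genes were 2-fold lower, the immunoglobulin list gave 0.74, the interferon list 0.077, class II -0.011 and Sftpc 0.093. Without the mixed cells, 32 genes were higher and 70 lower, the follicular list gave 0.54 and the immunoglobulin list 0.79. Among cells with Ighm or Ighd these lists gave 0.58 and 0.92, and Sftpc 0.024. Without the cycling and interferon-high cells the interferon list gave 0.32. The mean of per-cell CPM gave 0.79 for the immunoglobulin list, 0.28 for the interferon list and -0.015 for class II. Totals without immunoglobulin, ribosomal and mitochondrial genes gave 99 genes higher, 98 lower and 1.25 for the immunoglobulin list. At 10, 50 and 0 UMIs as the minimum, 186, 12 and 1450 genes were higher and 392, 29 and 2276 lower. Light chain calls at 10 UMIs and 10 times left 36.4% (p47phox-KI) and 32.6% (WT) kappa cells. The causes were not tested.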

Other observations

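Further lists and genes were read, some also without the mixed WT cells. Redox and NRF2 genes summed to 5703 CPM in p47phox-KI and 7609 CPM in WT, a log2 ratio of -0.41, and -0.24 (-0.43 to -0.055) without the mixed cells. Gclc, a subunit of the enzyme that limits glutathione synthesis, had 0 UMIs in p47phox-KI and 37 in WT, of which 3 were left without the mixed cells. The cytokine gene Il6 had 0 and 18 UMIs and the chemokine gene Cxcl10 0 and 30, and 0 of both were left in WT without the mixed cells. Endoplasmic reticulum chaperones summed to -0.47, and -0.24 (-0.59 to 0.098) without the mixed cells. Glycolysis and hypoxia genes summed to 0.054 (-0.30 to 0.39). Plasma cell genes summed to -0.080 (-0.54 to 0.36). Ly86, a partner of the Toll-like receptor relative RP105 on B cells, had 33 UMIs in 15 of 22 p47phox-KI cells and 28 UMIs in 18 of 46 WT cells, a ratio of 1.20 (0.44 to 1.99) and 1.09 without the mixed cells. Ltb, which encodes lymphotoxin beta, had 21 and 18 UMIs, a ratio of 1.19 (0.21 to 2.19) and 0.93 without the mixed cells. The Ltb ratio fell short of 2-fold under 5 of 14 other settings and the Ly86 ratio under 4. Haemoglobin UMIs were found in 4 of 22 p47phox-KI and 1 of 46 WT B cells, and in 17.2% and 1.62% of the other kept barcodes.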
